A study of Sus scrofa with 28 samples.

Results

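Genes of Wnt, TGF-beta, BMP, FGF and Notch signalling were followed in the loin muscle (Longissimus dorsi) of weaned piglets. Members were chosen by name, as probe sets whose gene symbol starts with one of 29 stems of ligands, receptors, modulators and effectors of these pathways (FZD, DKK, TGFB, BMP, SMAD, FGF, PDGF, NOTCH and others), together with SKI and CTNNB1. The rule used no level, but members were chosen with earlier results of these data known. PDGFD and BMP2K bear these names only through the study's list of genes that differ on these arrays, so their difference bore on their being members. This gave 32 probe sets of 29 genes, out of 5226 probe sets and 2275 named genes in the table. Probe sets were found for 15 of the 29 stems, and the other 14, among them WNT, DVL, AXIN, LEF, INHB, GREM, DLL, JAG and SMURF, had none here. The group is therefore mostly one of receptors, secreted modulators and effectors, with few ligands and no Wnt ligand.

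The samples were one array each of 28 male piglets aged 28 days, 14 Duroc × Iberian (DU×IB) and 14 purebred Iberian (IB). Both genetic types were born to Iberian dams, so they differ in the breed of the sire, Duroc or Iberian. The labels name no litter. By the study's methods the DU×IB piglets came from few litters, fewer than the IB piglets, so many were littermates, and every SE and p here takes the 14 piglets of a genetic type as independent. Levels are the authors' log2 values, and each difference below is DU×IB minus IB on that scale. A probe set was called where limma's adjusted p over all 5226 probe sets was under 0.10.

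Wnt proteins bind Frizzled receptors and the coreceptor LRP6, which keeps beta-catenin (CTNNB1) from being degraded, and Dickkopf proteins (DKK) are secreted modulators of this step. TGF-beta and BMP ligands act through paired serine and threonine kinase receptors on SMAD proteins, and follistatin (FST) binds and neutralizes activins. In muscle these routes set the balance between growth of fibres, satellite cell differentiation and deposition of connective tissue. FGF, PDGF, VEGF and EGF act on receptor tyrosine kinases of fibroblasts, vessels and muscle precursors, and Notch keeps satellite cells undifferentiated through effectors of the HES and HEY families.

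Here and below, a gene counts as measured if a named probe set of it passed the authors' filter for variation. Others may be on the array without passing that filter or without a name. The tissue was checked against muscle fibre markers, of which 4 of 22 genes were measured (ATP2A1, PYGM, TPM2 and RYR1). Their mean level per piglet was 10.7 to 11.7 in DU×IB and 10.7 to 12.1 in IB, and none of their 9 probe sets was called. The arrays fell into 2 hybridization series, recovered from 10 spike-in control probe sets whose mean was 8.93 to 9.68 in 16 arrays and 6.19 to 7.01 in 12 arrays. Each series held both genetic types in equal numbers (8 and 8, and 6 and 6), so the series was also fitted as a block and the difference was computed within each series. For 23 of the 32 member probe sets (71.9%) the level differed between series with an adjusted p under 0.10, against 80.1% of all probe sets. In the muscle of whole loin, fewer cells of a type and less RNA per cell cannot be told apart.

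DKK3 and EGFL6 were higher in DU×IB, and no member was lower at the threshold. These are 2 of 32 probe sets called, where 0.995% of all probe sets were called (0.765% higher and 0.23% lower in DU×IB). With the series as a block PDGFD passed too, which makes 3 of 32, all higher, against 2.77% of all probe sets (2.07% higher). PDGFD is a member only through the study's list, and without it and BMP2K the calls were 2 of 30 in both fits. DKK3, EGFL6 and PDGFD encode secreted proteins. All 3 stand in the study's list of genes that differ on these same arrays, as do BMP2K and EPHX2. Their direction here is therefore not independent evidence. For EGFL6 the authors' filter for variation also bore on its being measured. Its only levels at least 1.5-fold from its median were high ones in DU×IB piglets.

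At an unadjusted p under 0.05 there were 6 members, 3 higher (DKK3, EGFL6, PDGFD) and 3 lower (SKI, BMP2K, EPHX2), against 8.5% of all probe sets (5.53% higher and 2.97% lower). PDGFD and BMP2K, members only through that list, are among the 6, and 4 of 30 were left without them. Over the 32 probe sets, 20 had a higher mean in DU×IB (62.5%, against 52.5% of all probe sets). The median difference was 0.06 for the members and 0.02 for all probe sets, and the median size of the difference regardless of sign was 0.20 for the members and 0.16 for all. The genetic types overlapped for all 32 member probe sets.

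**Figure D1:**
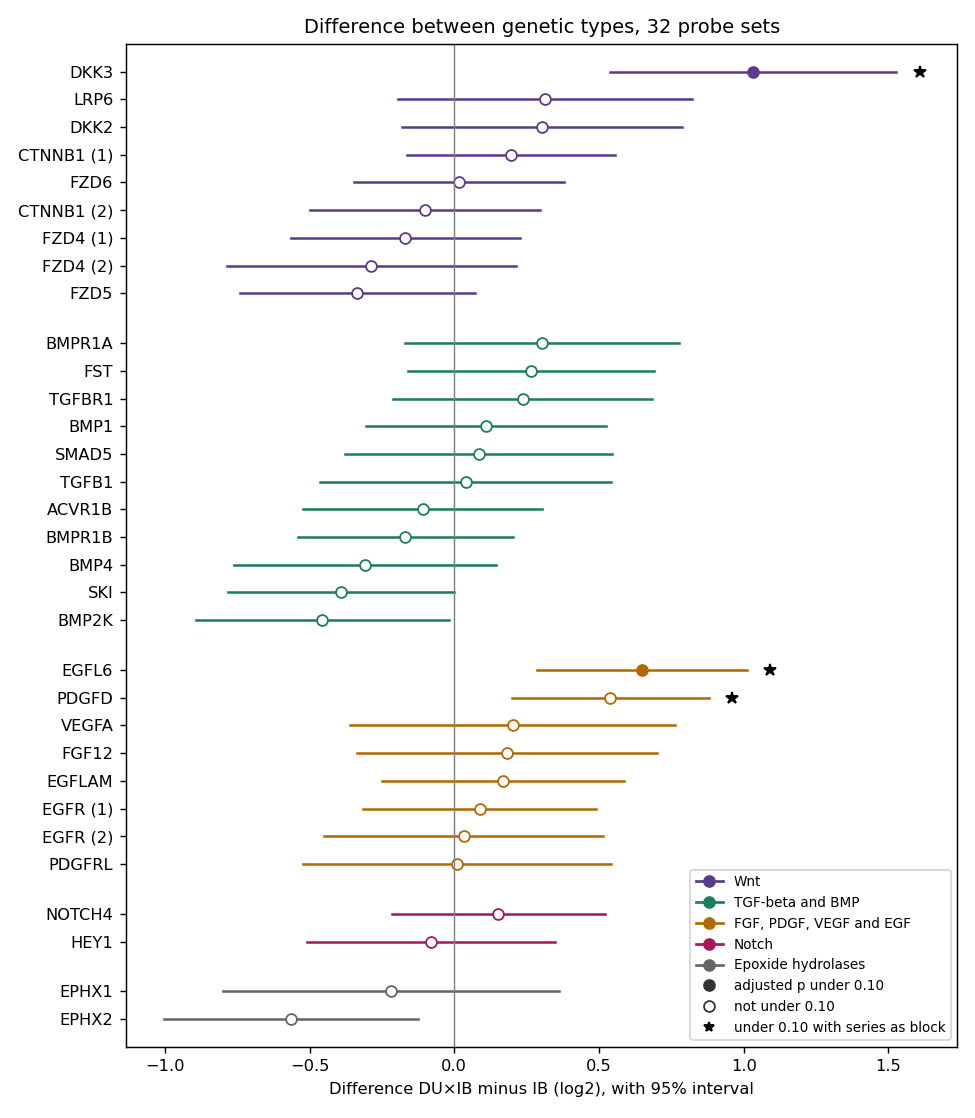
Difference between DU×IB and IB (log2, DU×IB minus IB) for the 32 member probe sets, grouped by pathway, with 95% intervals from limma (n = 14 piglets in each genetic type). Filled points are DKK3 and EGFL6, which passed the adjusted threshold of 0.10 without the series, and stars mark DKK3, EGFL6 and PDGFD, which passed it with the series as a block.

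Among the secreted modulators of Wnt, DKK3, a Dickkopf protein that differs from the others in having no settled action on Wnt receptors, had the largest difference of all members. Its level in DU×IB had a lowest value of 4.40, a median of 5.67 and a highest of 7.01, against 3.66, 4.63 and 5.57 in IB. Of the DU×IB piglets, 13 of 14 lay above the IB median and 8 above every IB piglet, so the genetic types were shifted but overlapped. The mean was 5.71 ± 0.65 in DU×IB and 4.68 ± 0.64 in IB (SD, n = 14 each), a difference of 1.03 (SE 0.24, 95% interval 0.54 to 1.53, adjusted p = 0.0320 by limma), or 2.05-fold. With the series as a block the adjusted p was 0.0195.

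DKK3 differed by similar amounts in both series, 0.97 in the series of 16 (SE 0.25) and 1.12 in the series of 12 (SE 0.44), and the test of the difference between series had p = 0.773. Neither series passed the threshold by itself (adjusted p = 0.256 and 0.172). Genetic type accounted for 40.8% of the variance of DKK3 over the 28 arrays, and series for 0.213%.

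DKK2, which binds LRP6, ran from 7.68 to 9.32 (median 8.32) in DU×IB and from 6.35 to 9.30 (median 8.11) in IB. The difference of 0.30 (95% interval -0.18 to 0.79, adjusted p = 0.927 by limma) lay within the spread between piglets. It was 0.62 in the series of 16 and -0.12 in the series of 12. The test of that change between series had p = 0.111 (adjusted p = 0.802).

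The receptors and the effector of Wnt signalling did not pass the test in either direction. FZD4, a Frizzled receptor known for its part in vessel growth, has 2 probe sets, with differences of -0.17 (95% interval -0.56 to 0.23) and -0.29 (-0.79 to 0.21). Both ran lower in DU×IB in both series, by at most 0.40, and the IB median exceeded 10 and 12 of 14 DU×IB levels. FZD5 was in the same direction, with a median of 4.82 in DU×IB and 4.99 in IB and a difference of -0.34 (-0.74 to 0.07, adjusted p = 0.743 by limma), with 12 of 14 DU×IB levels under the median of IB. FZD6, by contrast, differed by 0.02 (-0.35 to 0.38).

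LRP6 differed by 0.31 (95% interval -0.19 to 0.82, adjusted p = 0.928 by limma) and was the only Wnt receptor with a positive difference of over 0.1. The 2 probe sets of CTNNB1, beta-catenin, pointed opposite ways. One had a mean of 9.23 in DU×IB and 9.33 in IB, a difference of -0.10, and the other had 4.17 in DU×IB and 3.98 in IB, a difference of 0.20. The second of them had a mean of 3.85 in both genetic types in the series of 16, and in the series of 12 of 4.61 in DU×IB and 4.15 in IB, a difference of 0.46 (adjusted p = 0.148 within that series by limma). Over the 9 probe sets of the Wnt group, the mean in DU×IB was the higher one for 5 and the lower one for 4 (4 and 5 with array median centring, where FZD6 turned lower), with a median difference of 0.02.

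The TGF-beta and BMP group held 11 genes with 1 probe set each, and none was called with or without the series block. The mean was higher in DU×IB for 6 of them and lower for 5 (5 and 6 with quantile normalization, where TGFB1 turned lower), with differences from -0.46 to 0.30 and a median of 0.04. SKI and BMP2K, both intracellular, had the lowest differences, and BMPR1A and FST the highest.

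SKI, a corepressor that binds SMAD proteins and also promotes growth of muscle in mice, had a lowest level of 3.45, a median of 4.52 and a highest of 5.29 in DU×IB, against 4.30, 4.96 and 5.62 in IB. In DU×IB, 11 of 14 levels were under the median of IB and 2 lay below every IB piglet. The mean was 4.56 ± 0.45 in DU×IB and 4.95 ± 0.48 in IB, a difference of -0.39 (SE 0.19, unadjusted p = 0.0489 and adjusted p = 0.585 by limma). It was nearly equal in both series, -0.40 and -0.38, and the adjusted p with the series as a block was 0.321.

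BMP2K, a kinase first found as a gene induced by BMP2 in mouse bone precursors, ran from 3.69 to 5.31 (median 4.87) in DU×IB and from 3.93 to 6.00 (median 5.24) in IB. The IB median exceeded 13 of 14 DU×IB levels. The means were 4.78 ± 0.46 in DU×IB and 5.23 ± 0.63 in IB, a difference of -0.46 (SE 0.22, unadjusted p = 0.0421, adjusted p = 0.560 by limma). The difference was -0.66 in the series of 16 and -0.18 in the series of 12. The annotation of the array gives this probe set a name of its own, a locus with no symbol, and BMP2K is the name in the study's list.

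The ligands of the group had small or uncertain differences. BMP4 had a mean of 4.05 ± 0.42 in DU×IB and 4.36 ± 0.70 in IB, a difference of -0.31 (95% interval -0.76 to 0.14), with 10 of 14 DU×IB levels under the median of IB. TGFB1 had a mean of 3.31 in DU×IB and 3.27 in IB but a median of 3.16 in DU×IB and 3.30 in IB, so mean and median differ in direction. TGFB1 and BMPR1B were the only members whose mean was under 4 in both genetic types. BMP1, the protease that trims procollagens and not a BMP ligand, differed by 0.11 (-0.31 to 0.52).

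BMPR1A, TGFBR1 and follistatin had nearly all of their difference in the series of 16. BMPR1A, a type I receptor for BMPs, ran from 7.29 to 8.49 (median 7.87) in DU×IB and from 6.62 to 7.87 (median 7.37) in IB in that series. In the series of 12 it ran from 8.20 to 8.88 (median 8.53) in DU×IB and from 8.50 to 8.77 (median 8.58) in IB. The difference was 0.57 in the first of these and -0.05 in the other, and 0.30 over both (95% interval -0.17 to 0.78). BMPR1A was the one member with an unadjusted p under 0.05 for the change between series (p = 0.0384, adjusted p = 0.766 by limma), where 6.37% of all probe sets had one.

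FST, follistatin, differed by 0.48 in the series of 16 and by -0.02 in the series of 12, and by 0.27 over both (95% interval -0.16 to 0.69, adjusted p = 0.927 by limma). TGFBR1, the type I receptor for TGF-beta, differed by 0.24 (-0.21 to 0.68), with 0.38 in the series of 16 and 0.04 in the series of 12, and ACVR1B, a type I receptor for activins, by -0.11 (-0.52 to 0.30). SMAD5, which carries the BMP signal to the nucleus, differed by 0.08 (-0.38 to 0.55) and hardly varied in this between the series (0.08 and 0.09). For BMPR1B the difference was -0.17 (-0.54 to 0.20).

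The 8 probe sets of the FGF, PDGF, VEGF and EGF group all had a higher mean in DU×IB (7 of 8 with array median centring or quantile normalization, where PDGFRL turned lower), with differences from 0.01 to 0.65 and a median of 0.17. Of these 1 of 8 was called, where 0.995% of all probe sets were, and 2 of 8 with the series block, where 2.77% were, among them PDGFD, a member only through the study's list. EGFL6, called in both fits, is a secreted matrix protein with EGF repeats and stands in this group by its name stem. It had a lowest level of 4.29, a median of 4.75 and a highest of 5.97 in DU×IB, against 3.99, 4.33 and 4.48 in IB. The spread in DU×IB was the wider one, with 8 of 14 piglets above every IB piglet and 2 below the IB median. No IB level lay 1.5-fold or more from the median over all piglets. EGFL6 therefore met the authors' filter for variation only through its high levels in DU×IB, so its call is not independent of that filter. The mean was 4.89 ± 0.56 in DU×IB and 4.24 ± 0.19 in IB, a difference of 0.65 (SE 0.18, 95% interval 0.29 to 1.01, adjusted p = 0.0961 by limma), or 1.57-fold.

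For EGFL6 the adjusted p with the series as a block was 0.0330. The difference was 0.42 in the series of 16 (adjusted p = 0.997) and 0.96 in the series of 12 (adjusted p = 0.0918), and EGFL6 was the one member called within a series (0 of 32 in the series of 16, where 0.172% of all probe sets were called, and 1 of 32 in the series of 12, where 4.38% were). The call without the series was lost when single piglets were left out, in 19 of 28 cases (adjusted p = 0.101 to 0.192 in these 19). It was kept without DU×IB replicates 1, 3, 4, 6, 9 or 11 or IB replicates 2, 3 or 7. It was also lost with array median centring (adjusted p = 0.207), quantile normalization (0.246) and array weights (0.131).

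PDGFD, a ligand of PDGF receptor beta, had a lowest level of 9.03, a median of 9.65 and a highest of 10.2 in DU×IB, against 8.46, 9.10 and 9.63 in IB. In DU×IB, 13 of 14 piglets lay above the IB median and 7 above every IB piglet. The mean was 9.61 ± 0.34 in DU×IB and 9.07 ± 0.41 in IB, a difference of 0.54 (SE 0.17, 95% interval 0.20 to 0.88, adjusted p = 0.187 by limma), or 1.45-fold, which did not pass the threshold. With the series as a block the adjusted p was 0.0407. In the series of 12 the genetic types did not overlap (1 of 32 member probe sets, against 2.43% of all), at 9.71 to 10.2 in DU×IB and 8.46 to 9.63 in IB, a difference of 0.75 (adjusted p = 0.102), and in the series of 16 the difference was 0.38 (adjusted p = 0.997).

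Other members of this group differed by 0.20 or less. VEGFA, the main growth factor of vessels, had a mean of 9.07 ± 0.58 in DU×IB and 8.87 ± 0.89 in IB, a difference of 0.20 (95% interval -0.36 to 0.76). The 2 probe sets of EGFR, the EGF receptor, differed by 0.09 (-0.32 to 0.49) and 0.03 (-0.45 to 0.51), with 7 of 14 DU×IB piglets above the IB median for each. PDGFRL, a protein like the PDGF receptor that has no kinase, differed by 0.01 (-0.52 to 0.54), and 65.4% of its variance lay between the series. EGFLAM, a matrix protein that binds dystroglycan, differed by 0.17 (-0.25 to 0.59).

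FGF12, the only FGF measured here, is an FGF homologous factor that stays inside the cell and binds sodium channels. Its difference was 0.18 (95% interval -0.34 to 0.70), made up of -0.14 in the series of 16 and 0.61 in the series of 12. The spread was widest in the series of 16, from 3.13 to 6.46 in DU×IB and from 3.96 to 6.17 in IB. The test of the change between series had p = 0.138 (adjusted p = 0.802).

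**Figure D2:**
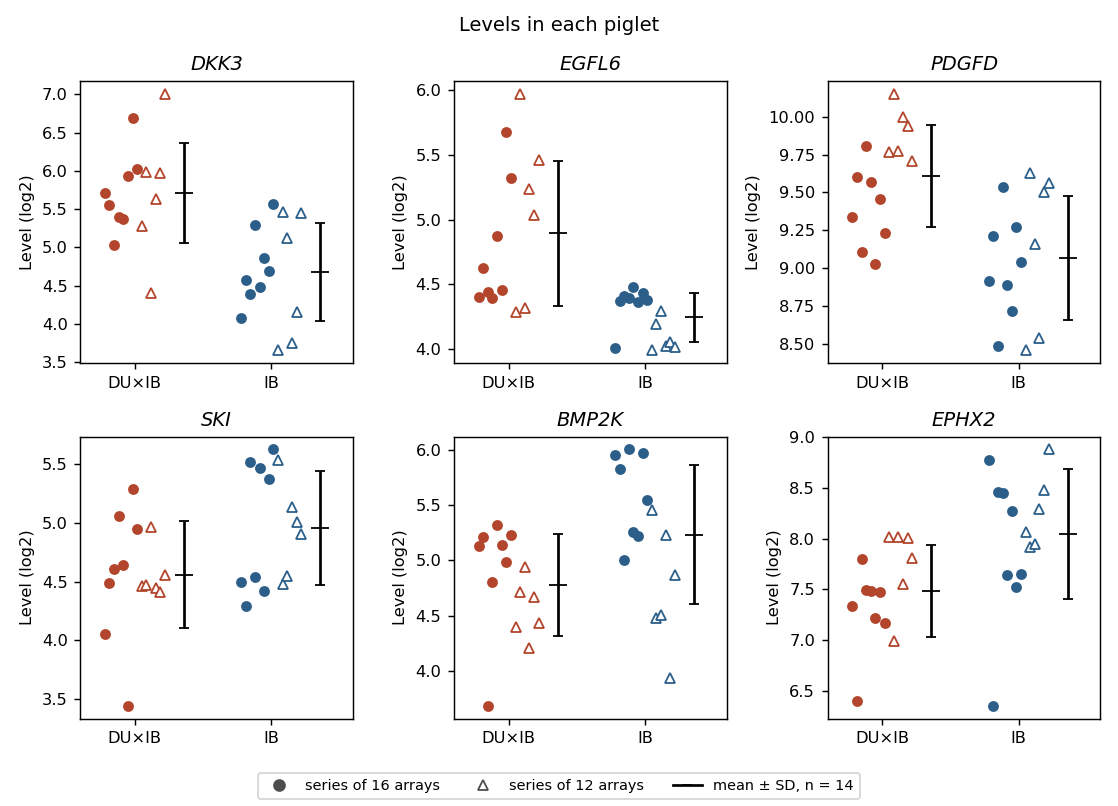
Level (log2) of each piglet for the 6 members with an unadjusted p under 0.05, DU×IB left of IB, with circles for the series of 16 arrays and triangles for the series of 12, and bars for the mean ± SD (n = 14). DKK3, EGFL6 and PDGFD lie higher in DU×IB and SKI, BMP2K and EPHX2 lower, and the genetic types overlap in every panel.

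Notch signalling was covered by 1 receptor and 1 effector. NOTCH4, a receptor mainly of endothelial cells, ran from 5.27 to 6.44 (median 5.48) in DU×IB and from 4.71 to 6.34 (median 5.42) in IB, a difference of 0.15 (95% interval -0.21 to 0.52). It was -0.03 in the series of 16 and 0.40 in the series of 12. HEY1, a repressor that Notch induces, had a mean of 8.10 ± 0.45 in DU×IB and 8.18 ± 0.60 in IB, a difference of -0.08 (-0.51 to 0.35). Neither of them kept 1 direction in both series.

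The name stem of the Eph receptors matched only EPHX1 and EPHX2, which are epoxide hydrolases and belong to none of these pathways. EPHX2, the soluble epoxide hydrolase that breaks down lipid epoxides, had a lowest level of 6.41, a median of 7.49 and a highest of 8.02 in DU×IB, against 6.36, 8.16 and 8.88 in IB. All 14 DU×IB levels were under the median of IB, yet the lowest piglet of all was an IB one. The mean was 7.49 ± 0.45 in DU×IB and 8.05 ± 0.64 in IB, a difference of -0.56 (SE 0.22, unadjusted p = 0.0134, adjusted p = 0.361 by limma). It was -0.59 in the series of 16 and -0.53 in the series of 12, with an adjusted p of 0.151 with the series as a block. Without IB replicate 2 the adjusted p was 0.0832, and with array weights it was 0.0986. EPHX1, the microsomal epoxide hydrolase, differed by -0.22 (95% interval -0.80 to 0.36).

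Within series, 22 of the 32 member probe sets (68.8%) had the same direction in both, against 55.6% of all probe sets. All of DKK3, EGFL6, PDGFD, SKI, BMP2K and EPHX2 were among the 22. No member and no other probe set had an adjusted p under 0.10 for the change of the difference between series by limma, and at an unadjusted p under 0.05 this was 1 member and 333 of 5226 probe sets. The series took more of the variance than genetic type did in 22 member probe sets, with medians of 3.67% for genetic type and 16.3% for series.

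**Figure D3:**
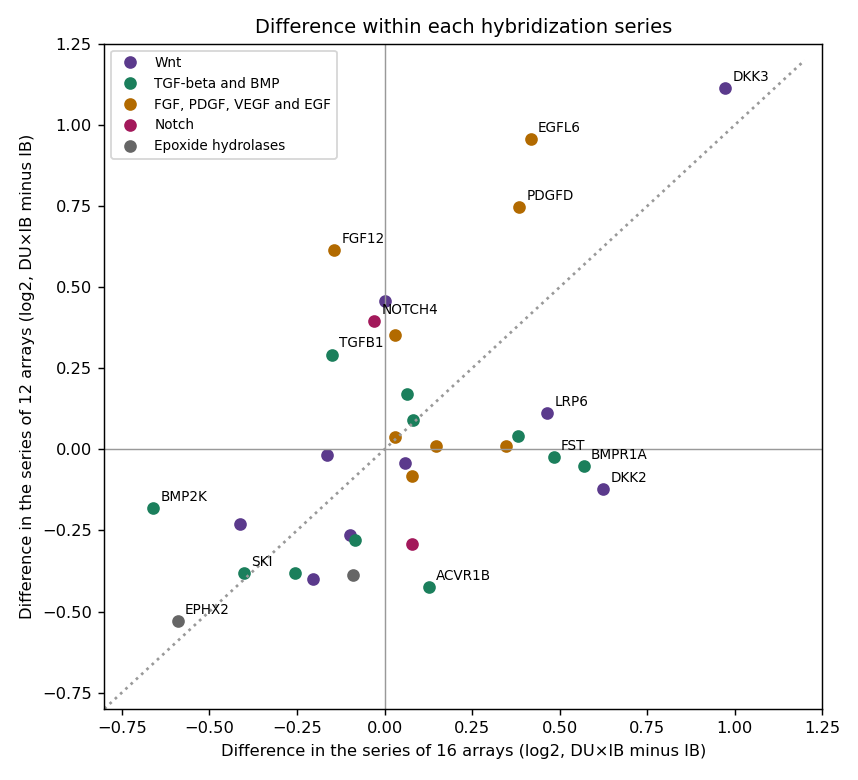
Difference between DU×IB and IB (log2, DU×IB minus IB) of each member probe set in the series of 16 arrays (horizontal, n = 8 per genetic type) and in the series of 12 (vertical, n = 6 per genetic type), with the line of equal differences dotted. DKK3, EGFL6 and PDGFD lie high in both, SKI, BMP2K and EPHX2 low in both, and DKK2, BMPR1A and FST lie at 0.48 or more in the series of 16 and just below 0 in the series of 12.

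**Figure D4:**
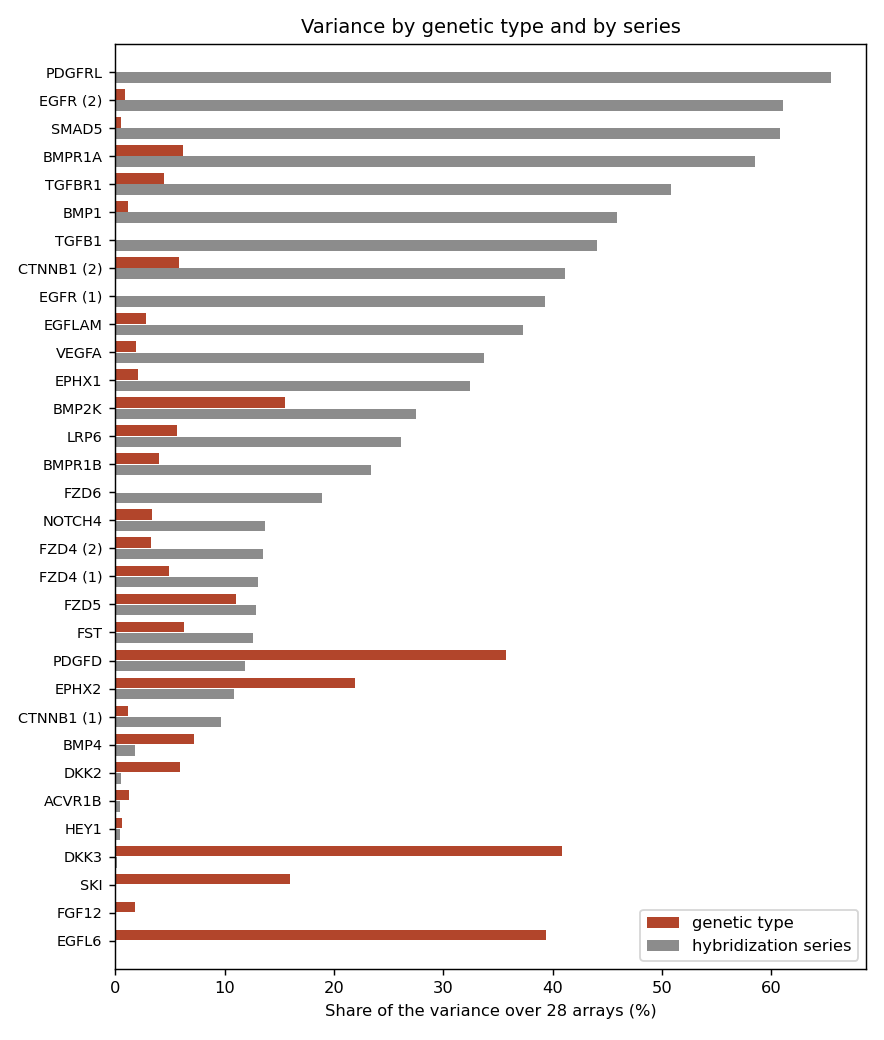
Share of the variance over 28 arrays (%) that lies between genetic types and between hybridization series, for each of the 32 member probe sets. Series took the larger share in 22 of them and genetic type in DKK3, EGFL6, PDGFD and EPHX2 among others.

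More of each pathway was read from lists of 193 other genes, of which 26 were measured with 33 probe sets. By limma none was called (2 had an unadjusted p under 0.05), the mean was higher in DU×IB for 16 and lower for 17, and the median difference was -0.0016. With the series block, 2 of the 33 passed, both higher in DU×IB and both in the study's list, where 2.77% of all probe sets passed (2.07% higher). CTNNBIP1, which binds beta-catenin and keeps it from its transcription factors, had a mean of 5.86 ± 0.70 in DU×IB and 5.01 ± 0.60 in IB, a difference of 0.85 (adjusted p = 0.126 by limma, 0.0341 with the block). DACT1, which binds Dishevelled, had 5.72 ± 0.24 in DU×IB and 5.34 ± 0.35 in IB, a difference of 0.38 (adjusted p = 0.398 and 0.0927). SFRP2 and MSTN were neither among these 26 genes nor among the members. The study gives SFRP2 as higher in DU×IB and did not detect a difference in level for MSTN. From changes in co-expression between the genetic types, it nevertheless predicts MSTN as a main regulator of the differences.

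Markers of connective tissue cells moved with the members that were higher in DU×IB. Of 17 fibroblast and matrix genes 6 were measured (MFAP5, COL1A1, FBN1, COL5A1, THY1 and POSTN), so the filter for variation bore on which ones. All 6 had a higher mean in DU×IB, against 52.5% of all probe sets, and their median difference was 0.72. None was called, and 3 passed the threshold once the series was a block. The mean level of these 6 per piglet ran from 9.42 to 10.6 in DU×IB and from 7.54 to 9.91 in IB. Of 13 tendon and cartilage genes 5 were measured, with 3 called higher in DU×IB (KERA, FMOD and COL12A1), THBS4 past the threshold only with the series block, and CILP lower in mean (difference -0.42, adjusted p = 0.724 by limma), and their mean level ran from 8.84 to 11.0 in DU×IB and from 7.34 to 10.2 in IB. Of these 11 genes 7 stand in the study's list. Markers of endothelium and pericytes had a higher mean in DU×IB in 8 of 11 probe sets, and their mean level per piglet ran from 6.57 to 7.93 in DU×IB and from 6.36 to 8.37 in IB. Those of macrophages had a lower mean in DU×IB in 10 of 10 probe sets. Their mean level per piglet ran from 5.22 to 5.77 (median 5.47) in DU×IB and from 5.33 to 7.59 (median 5.60) in IB. None was called in either list. Of 12 adipocyte genes 3 were measured, with mean levels per piglet from 7.96 to 9.26 in DU×IB and from 7.40 to 9.21 in IB. RBP7 was called higher in DU×IB (difference 1.58, adjusted p = 0.0309 by limma) and stands in the study's list, while FABP4 differed by 0.37 and CFD by -0.44, neither called. The part of any of these in the differences of DKK3, EGFL6 and PDGFD was not tested.

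Correlations with these lists were computed over the 28 piglets on deviations from the mean of genetic type and series, in a family of 21 relations with Benjamini-Hochberg adjustment of two-sided permutation tests. PDGFD followed the fibroblast and matrix genes most closely, with r = 0.841 and rho = 0.814 (permutation p = 4e-05 and 3e-05, adjusted 0.00042 and 0.00063). Without the 2 piglets farthest from the median of the list r was 0.758, and within the series it was 0.652 in the 16 arrays and 0.972 in the 12. With the tendon and cartilage genes PDGFD had r = 0.607 and rho = 0.537 (permutation p = 0.00489 and 0.0122, adjusted 0.0147 and 0.0367), with r = 0.489 without the 2 farthest piglets and 0.381 and 0.782 in the series of 16 and of 12.

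DKK3 followed the tendon and cartilage genes with r = 0.709 and rho = 0.736 (permutation p = 0.0003 and 0.00025, adjusted 0.0021 and 0.00175), r = 0.676 without the 2 farthest piglets, and 0.559 and 0.803 in the series of 16 and of 12. With the fibroblast and matrix genes it had r = 0.626 and rho = 0.608 (permutation p = 0.00202 and 0.00369, adjusted 0.00707 and 0.0155), r = 0.525 without the 2 farthest, and 0.482 and 0.694 within the series.

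EGFL6 had r = 0.623 and rho = 0.675 with the tendon and cartilage genes (permutation p = 3e-05 and 9e-05, adjusted 0.00042 and 0.000945), r = 0.690 without the 2 farthest piglets, and 0.669 and 0.588 in the series of 16 and of 12. With the fibroblast and matrix genes EGFL6 had r = 0.428 and rho = 0.470 (permutation p = 0.00049 and 0.00753, adjusted 0.00257 and 0.0264), r = 0.497 without the 2 farthest, and 0.587 and 0.338 within the series. Its higher values lay in DU×IB piglets, and its SD was 0.56 in DU×IB and 0.19 in IB.

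Between these members, DKK3 and EGFL6 had r = 0.590 and rho = 0.587 (permutation p = 0.00135 and 0.00164, adjusted 0.00567 and 0.00861), r = 0.573 without the 2 farthest piglets, and 0.618 and 0.581 in the series of 16 and of 12. DKK3 and PDGFD had r = 0.410 and rho = 0.377 (permutation p = 0.0561 and 0.0817, adjusted 0.147 and 0.215), and EGFL6 and PDGFD r = 0.165 and rho = 0.166 (permutation p = 0.245 and 0.363, adjusted 0.429 and 0.544). Neither of these pairs passed. SKI, BMP2K and EPHX2 passed with none of the 3 lists (adjusted permutation p = 0.229 to 0.932 for r), and the markers of endothelium and pericytes passed with none of the 6 members. With the fibroblast and matrix genes r was 0.291 in the series of 16 and -0.694 in the series of 12 for SKI. For BMP2K it was 0.308 and -0.696, and for EPHX2 -0.382 and 0.0195. With the tendon and cartilage genes it was 0.388 and -0.629 for SKI, 0.208 and -0.316 for BMP2K, and 0.166 and -0.219 for EPHX2. The change of r between series was not tested.

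**Figure D5:**
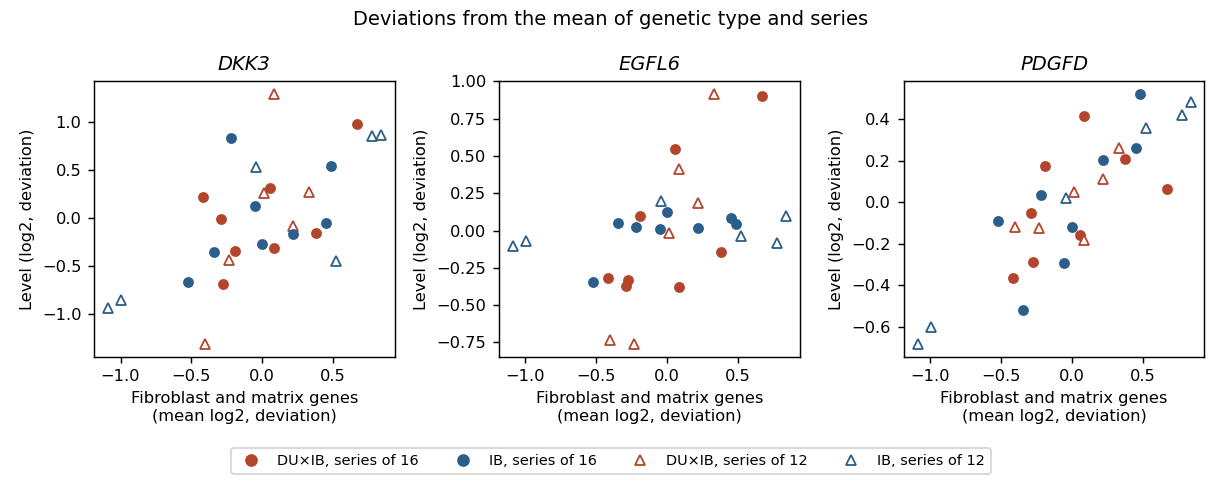
Level of DKK3, EGFL6 and PDGFD in each of the 28 piglets against the mean level of 6 fibroblast and matrix genes, both as deviations (log2) from the mean of the piglet's genetic type and series, with DU×IB in red and IB in blue. The points of PDGFD lie closest to a line (r = 0.841), those of DKK3 are more scattered (r = 0.626), and for EGFL6 (r = 0.428) the IB piglets stay near 0.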

How the data were processed

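The authors scanned the arrays with GCOS, turned probe intensities into the deposited log2 levels with GCRMA in BRB-ArrayTools (background by base content of the probes, then quantile normalization), and kept probe sets with over 20% of values at least 1.5-fold from the median, which all 5226 met. Names came from the study's tables (572 probe sets) or the annotation of the array (2073), 2535 had none and 46 several, of which 1 with a BMP symbol was left out. The 53 control probe sets stayed in the tests.

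Genetic types were compared with limma 3.58.1 in R 4.3.3 (lmFit and eBayes, two-sided tests, Benjamini-Hochberg adjustment across the whole table, threshold 0.10) without a covariate. The study's model also held the hybridization series, which the labels do not name, so the spike-ins gave it. Permutation tests drew 100000 orders. Alternatives were the series or replicate number as a block, each series alone, median centring, quantile normalization, array weights, other priors and filters, and each piglet left out. The script was tested on simulated data. The number of arrays limits the precision. Levels of different probe sets are not comparable as expression.

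Members and lists were chosen with earlier results of these data known. Named by rule were members called in either fit or with p under 0.05, those of highest and lowest array level (a rule for names only), those with 2 probe sets, and otherwise the member of largest difference in its group. The remaining members were named after their values were seen, to account for all.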

Additional observations from a re-analysis of the deposited data

How the results depend on the processing

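The 2 member probe sets called became 3 with the series block, 0 within the series of 16 (9 of 5226 probe sets called there), 1 within the series of 12, 1 with array median centring, 4 with the replicate block, 3 with array weights, 1 at a threshold of 0.05, and 1 to 3 when each piglet was left out. They stayed at 2 with quantile normalization (DKK3 and PDGFD), with dim probe sets left out and with a trended and robust prior (DKK3 and EGFL6), and with PDGFD and BMP2K left out, a setting chosen after seeing the data. The 0 other pathway probe sets called (2 at an unadjusted p under 0.05) became 2 with the series block, 1 within the series of 12, 1 with array median centring, 1 with quantile normalization, 1 with the replicate block, 2 with array weights, and 0 to 1 when each piglet was left out (1 without DU×IB replicates 1, 3 or 6 or IB replicates 2 or 14). With probe sets averaged per gene, 1 of 29 member genes was called, DKK3 (adjusted p = 0.0436 by limma), and EGFL6 was at 0.117. The share called over the whole table was not counted for that fit or for the threshold of 0.05. Those member counts therefore cannot be set against one. Causes were not tested.

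DKK3 was called in 8 of 10 settings, within neither series, and in all 28 cases of a piglet left out (difference 0.93 to 1.14, adjusted p = 0.0103 to 0.0719 by limma). EGFL6 was called in 6 of 10 settings. PDGFD passed in 4, among them quantile normalization (adjusted p = 0.0645), the replicate block (0.0473) and array weights (0.0753). Piglets were left out only in the fit without the series, where PDGFD did not pass with all 28 piglets either (adjusted p = 0.187 by limma). It passed in none of those 28 cases (0.123 to 0.314). How far its pass with the series block depends on single piglets was not tested. SKI and BMP2K passed in none of 10 settings. No difference of these 6 genes changed direction. The median difference of the members was 0.02 to 0.09 when each piglet was left out and -0.02 within the series of 12.

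Replicate numbers of the labels are shared by both genetic types but did not pair the piglets. Deviations of same-numbered piglets from their group means correlated with r = 0.0236 to 0.730, over 0.1 in 12 of 14 pairs, and in 2 of 14 once the series was taken out (-0.326 to 0.538), since the same numbers lie in the same series. With the replicate block 145 of 5226 probe sets were called against 52 without, and EPHX2 passed (adjusted p = 0.0585). Array median centring gave 54, quantile normalization 63, array weights 96, the series as a block 145 and the series of 12 alone 229.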
